A study of Mus musculus with 2 samples.

Results

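SR proteins and heterogeneous nuclear ribonucleoproteins (hnRNPs) are the main families of RNA-binding proteins that choose splice sites. The genes of both families, and the types of transcript each of them made, were described in total RNA from the embryonic mouse hindbrain. Members were the protein-coding genes whose symbol is Srsf with a number or begins with Hnrnp. The rule used names alone, and it found 31 of 43346 Ensembl genes: 11 Srsf genes and 20 Hnrnp genes, with 212 of 103639 transcripts.

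The tissue was whole hindbrain of strain B6NCrl mice at embryonic day 11.5. There was 1 group of 2 libraries, each a pool of male and female embryos: 109 embryos in pool 1 and 88 in pool 2. Each library took 10 ng of RNA above 200 nt as its input, and ERCC spike-in RNAs were added. With 1 group there was no condition to compare and no test between groups; values are given for each pool, and a mean ± SD over 2 pools measures only the spread between them.

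SR proteins carry RNA recognition motifs and a tail rich in arginine and serine, bind mostly exonic enhancers, and help the spliceosome define an exon. The hnRNPs coat nascent pre-mRNA, and many of them repress exons or introns near their binding sites. Many genes of both families limit their own protein by making transcripts that are not translated into it: a poison exon brings in an early stop codon, which marks the RNA for nonsense-mediated decay, or an intron is kept. Such transcripts have their own types in the annotation. The type nonsense_mediated_decay has a reading frame that stops too early, retained_intron keeps intron sequence, and processed_transcript has no annotated reading frame. The sum of every type other than protein_coding, as a percent of a gene's transcript TPM, is called the non-coding share here; TPM is an abundance per unit of length, scaled to the same total in each library. A transcript name such as Srsf3-205 is the name given to a gene's transcript in GENCODE vM21.

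Cassette exons of the decay-type transcripts show what such an exon looks like. Each exon below is skipped by the most abundant coding transcript of its gene and holds an in-frame stop codon. The exon is printed from its first base to that stop, which is in capitals, as it reads 5′ to 3′ on the gene's strand in GENCODE vM21 transcripts (GRCm38, the mm10 build). The Srsf6-201 exon is 268 nt at chr2:162932815-162933082 on the plus strand. The Srsf3-201 exon is 456 nt at chr17:29039454-29039909 on the plus strand. The Srsf11-206 exon is 109 nt at chr3:158024123-158024231 on the minus strand. The Hnrnpll-203 exon is 83 nt at chr17:80044940-80045022 on the minus strand.
Srsf6-201: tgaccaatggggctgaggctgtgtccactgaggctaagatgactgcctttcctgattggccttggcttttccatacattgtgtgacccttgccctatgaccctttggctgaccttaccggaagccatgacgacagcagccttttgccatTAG
Srsf3-201: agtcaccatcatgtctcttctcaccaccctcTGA
Srsf11-206: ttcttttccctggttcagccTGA
Hnrnpll-203: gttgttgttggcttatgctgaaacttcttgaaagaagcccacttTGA
The stop began at base 150 of the Srsf6 exon, base 32 of the Srsf3 exon, base 21 of the Srsf11 exon and base 45 of the Hnrnpll exon. The cassette exons of Hnrnpd-208, Hnrnpdl-201 and Hnrnpr-206 held no stop codon themselves.

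Introns kept in abundant transcripts are shown by their ends, chosen after the values were seen. Each run has 10 exon bases and 20 intron bases, with the GT that opens the intron or the AG that closes it in capitals. The intron kept in Hnrnpk-217 is 78 nt (chr13:58393775-58393852, minus strand), and that in Hnrnpl-210 is 118 nt (chr7:28821274-28821391, plus strand). The intron kept in Srsf5-212 is 1229 nt (chr12:80947866-80949094, plus strand).
Hnrnpk-217 intron start: tctggatatgGTaagtttcttctttttgaa
Hnrnpk-217 intron end: ctgctcattatttaaatcAGactattctta
Hnrnpl-210 intron start: tcaggcaaaaGTgagtcagacaccacttcc
Hnrnpl-210 intron end: ctgtctcctgtttgattcAGgcgagcggag
Srsf5-212 intron start: cagctggcagGTttgttgaaatacagtttt
Srsf5-212 intron end: cataattgtcttgtgttaAGgatctcaaag
All of these introns open with GT and close with AG, and their lengths run from 78 to 1229 nt. Their transcripts are described with their genes below.

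Depth was 45340440 expected counts in pool 1 and 41261544 in pool 2, of which members took 686264 and 563555, or 1.63% and 1.53% of the counts on Ensembl genes. Spike-ins took 16.2% and 22.2% of TPM. Over genes whose mean TPM reached 1, the median log2 ratio (pool 2 over pool 1, with 1 added to each TPM) was -0.11. Ratios below are given relative to that median. The tissue label was checked on markers: all 6 hindbrain markers reached 1 TPM in each pool (Hoxa2 49.3 and 48.1, Hoxb1 6.18 and 4.97), and 3 forebrain markers summed to 0.50 and 0.31. Markers of neural progenitors, neurons, red blood cells, endothelium, macrophages and mesenchyme were all present, so the values are those of a mixed tissue. In such bulk RNA, more cells of a type and more RNA per cell cannot be told apart.

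All 31 members reached 1 TPM in each pool, and 24 of them (9 Srsf, 15 Hnrnp) reached 100. By mean level, 25 members stood in the highest 10% of detected protein-coding genes. The Hnrnp genes summed to 7760 TPM in pool 1 and 6627 in pool 2 (7194 ± 801, SD, n = 2). The Srsf genes summed to 3810 and 3344 (3577 ± 330, SD, n = 2). Per gene the families were closer, with medians of 293 and 212 TPM for Srsf and 223 and 194 for Hnrnp.

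Among the SR genes, Srsf3 was highest at 927 TPM in pool 1 and 851 in pool 2. It encodes a small SR protein that also takes part in mRNA export, and it lies at chr17:29032628-29043373 on the plus strand. Srsf2, a protein of nuclear speckles, followed at 712 and 647 TPM. The pools' ranges of these genes did not overlap each other or those of the genes below them. Srsf7, which carries a zinc knuckle beside its RNA recognition motif, stood at 409 and 349 TPM. Srsf1, the classical factor that promotes exon inclusion and shifts 5′ splice site choice, stood at 372 and 328 TPM, and its range overlapped that of Srsf7.

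The middle of the SR family was tightly packed. Srsf10, known as a regulator that represses splicing when dephosphorylated, had 293 and 288 TPM. Srsf5 had 335 and 199 TPM, so its range spanned that of Srsf10 and Srsf9. Srsf9 had 244 and 212 TPM, Srsf11 had 205 and 199, and Srsf6 had 206 and 174. Srsf4, related in sequence to Srsf5 and Srsf6, was lower at 99.5 and 87.8 TPM. The lowest was Srsf12 at 7.78 and 8.78 TPM, 11.3 times below Srsf4 by the mean of the pools. Of 10 neighbouring pairs in this order, 6 had ranges that did not overlap.

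Among the hnRNP genes, Hnrnpk was highest at 1948 and 1592 TPM (chr13:58391142-58403343, minus strand). It encodes a protein with KH domains that binds runs of C. Hnrnpa1, a well known repressor of exon inclusion, followed at 960 and 877 TPM. These top genes did not overlap in range with each other or with the next. The relatives of Hnrnpa1 in the A/B group spread widely: Hnrnpa2b1 had 665 and 522 TPM, Hnrnpab 615 and 528, Hnrnpa3 238 and 203, and Hnrnpa0 42.9 and 42.6.

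The F/H group binds runs of G. Hnrnph1 had 648 and 595 TPM, Hnrnpf had 518 and 426, Hnrnph3 had 124 and 111, and the X-linked Hnrnph2 had 131 and 87.5. Among the others, Hnrnpm had 415 and 341 TPM and Hnrnpc, which binds runs of U and coats introns, had 354 and 316. Hnrnpl, which binds CA repeats, had 229 and 215 TPM, and its relative Hnrnpll had 99.8 and 84.8. The first was thus 2.30 and 2.53 times higher than the second.

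Hnrnpd, which binds AU-rich elements and takes part in mRNA turnover, had 217 and 180 TPM, and Hnrnpdl had 216 and 185. Their ranges overlapped almost fully. Hnrnpr stood at 141 and 130 TPM, and Hnrnpu, a protein that also binds chromatin, at 141 and 138. The Hnrnpu relatives were lower: Hnrnpul1 had 51.6 and 47.5 TPM, and Hnrnpul2 was the lowest of the family at 4.65 and 5.65. Of 19 neighbouring pairs, 10 had ranges that did not overlap.

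**Figure D1:**
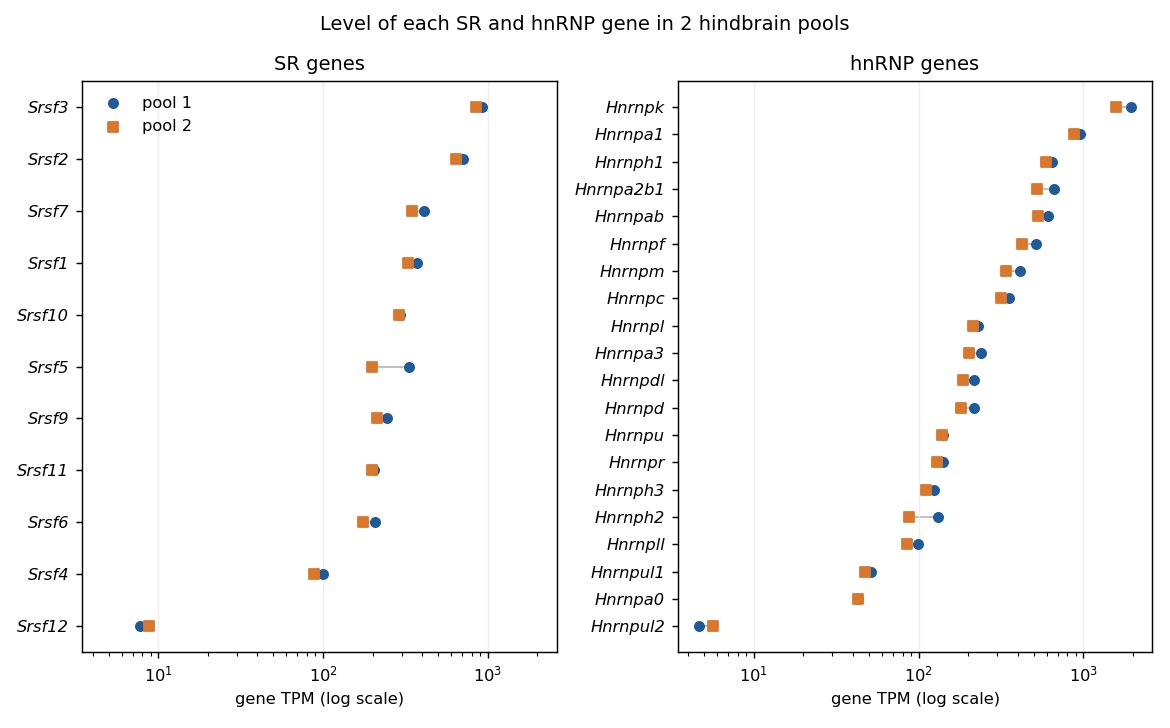
Gene TPM (log axis) of the 11 SR genes and 20 hnRNP genes, with a blue circle for pool 1 and an orange square for pool 2. Levels ran from 4.65 TPM (Hnrnpul2, pool 1) to 1948 TPM (Hnrnpk, pool 1), and Srsf5 and Hnrnph2 had the widest gaps between pools.

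Levels of the members were close between the pools. Only Srsf5 was more than 1.5-fold apart relative to the median gene, 1 of 31 members, against 893 of 14942 genes whose mean TPM reached 1 (5.98%). It was 1.56-fold lower in pool 2, a relative log2 ratio of -0.64. Its coding transcripts went from 193 to 108 TPM and its other transcripts from 142 to 91.1, so both kinds were lower in pool 2. Hnrnph2 came next at -0.47, and the highest were Hnrnpul2 at 0.34 and Srsf12 at 0.26, which were also the members with the lowest TPM.

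The median relative log2 ratio was -0.071 for the SR genes and -0.082 for the hnRNP genes. Set against the median gene, 24 members were lower and 7 higher in pool 2. By construction, as many of the 14942 genes that gave this median lay below it as above it. For gene TPM, no such count was made over other genes as abundant as the members. The 1370 protein-coding genes whose mean TPM reached 100 had a median of -0.046, so most of them were lower too. Their central 95% ran from -0.29 to 0.23. Of the 25 members among them, 2 lay below that range (Srsf5 and Hnrnph2) and 0 above it.

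By transcript type, the sums over each family differed. In the SR family, the non-coding share was 31.1% of transcript TPM in pool 1 and 33.1% in pool 2 (32.1% ± 1.42, SD, n = 2). In the hnRNP family it was 16.9% and 19.2% (18.04% ± 1.57, SD, n = 2). The gap between the families was larger than the spread between the pools in both. It narrowed to 27.6% against 23.4% (means of the pools) when only transcripts of the same length in the tables and in vM21 were kept, an alternative chosen after seeing the data. Over all 13032 protein-coding genes whose mean TPM reached 1, the share was 10.6% and 11.7%. In these sums, members with coding types only add to the total but not to the non-coding part. Among the 9 Srsf and 11 Hnrnp genes with coding and other types, the median share per gene was closer. It was 27.5% and 27.2% in Srsf and 24.9% and 32.3% in Hnrnp, so the order differed between the pools.

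The retained_intron type was the largest non-coding type in both families, with 20.0% and 20.8% of SR transcript TPM and 10.4% and 11.4% of hnRNP transcript TPM. Over all those protein-coding genes this type held 4.95% and 5.68%. Of the 51 member transcripts of this type, 18 spanned a whole intron of their gene's most abundant coding transcript in vM21 (6 of 18 Srsf, 12 of 33 Hnrnp). Srsf3-205, which had the most TPM of this type in the SR family, did not. Introns kept only in part, and introns of other transcripts, were not counted, and no such count was made over other genes. Decay-type transcripts held 7.67% and 7.69% in the SR family but 1.70% and 1.98% in the hnRNP family, beside 2.19% and 2.25% over all. Processed transcripts held 3.44% and 4.57% in the SR family, and 4.79% and 5.74% in the hnRNP family. In number, the 212 transcripts were 108 protein_coding, 51 retained_intron, 29 processed_transcript and 23 nonsense_mediated_decay, with 1 transcript of Hnrnpd that had no match. Of all of them, 158 reached 1 TPM in each pool and 18 were given no expected counts in either.

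These shares weigh transcripts, not reads. The median length was 846 nt for the non-coding types and 2144.5 nt for the coding type, and a short transcript needs fewer reads for the same TPM. Measured in expected counts, which follow reads, the non-coding share was 20.2% and 20.7% in the SR family and 8.09% and 9.06% in the hnRNP family. The summed share of the SR family stayed above that of the hnRNP family on this scale. The median share per gene, among members with coding and other types, had the other order. It was 10.2% and 11.5% in Srsf and 13.8% and 15.1% in Hnrnp. For all protein-coding genes the summed share was 5.91% and 6.73%.

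A few transcripts carried much of each family's share. Srsf3-205 alone held 35.2% and 35.9% of all non-coding TPM of the SR family, and Hnrnpk-217 held 33.4% and 29.8% of that of the hnRNP family. Without Srsf3 the SR share was 22.0% and 23.7%. Without Hnrnpk the hnRNP share was 10.8% and 13.1%, which is 1.51 times lower by the mean. Without Hnrnph1 it was 13.8% and 15.5%.

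A share could be compared in 20 members, 9 Srsf and 11 Hnrnp, which had both coding and other types in the tables. The other 11 had coding types only. Of those, Srsf7, Hnrnpa0 and Hnrnpul2 had 1 transcript each, and Srsf12, Hnrnpa1, Hnrnpa2b1, Hnrnpab, Hnrnpc, Hnrnpf, Hnrnph2 and Hnrnpul1 had more than 1. A share of 0 in these genes is a property of the transcript models, not a measurement: vM21 lists 8 transcripts of Srsf7, 13 of Hnrnpa2b1 and 13 of Hnrnpc, where the tables held 1, 3 and 2.

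Of the 20 members, 9 had a non-coding share of at least 25% in both pools: Srsf3, Srsf5, Srsf10, Srsf11, Hnrnpd, Hnrnpdl, Hnrnph1, Hnrnpk and Hnrnpl. Of 7521 protein-coding genes that could be compared in the same way, 2050 did (27.3%). Among those whose mean TPM reached 50, as it did in all 20 members, it was 440 of 1868 (23.6%). Among genes with 5 or more typed transcripts it was 1607 of 5052 (31.8%), beside 9 of 17 members. The median share of the members was 26.2% in pool 1 and 29.7% in pool 2, and that of all compared genes 11.0% and 13.5%. In expected counts, 4 members (Srsf3, Srsf5, Srsf11 and Hnrnph1) had at least 25% in both pools, beside 15.1% of the compared genes. With 4 of 20 members on that scale, the members' share of calls was close to that of all genes.

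**Figure D2:**
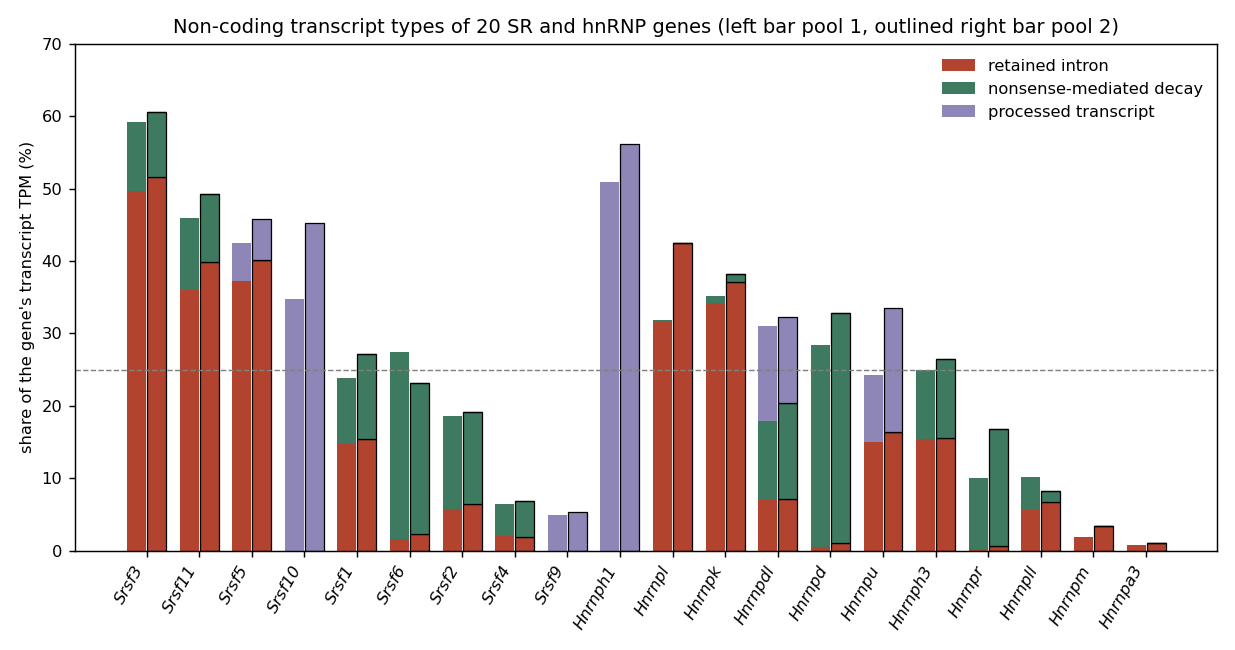
Non-coding share of transcript TPM (%) in the 20 members with coding and other types, split into retained intron, nonsense-mediated decay and processed transcript; left bars are pool 1 and outlined right bars pool 2, with a dashed line at 25%. Srsf3 reached 59.2% and 60.7%, while Hnrnpa3 had 0.72% and 1.08%.

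The type that made up most of the share varied among the SR genes: retained_intron in Srsf3, Srsf5, Srsf11 and Srsf1, nonsense_mediated_decay in Srsf6, Srsf2 and Srsf4, and processed_transcript in Srsf10 and Srsf9. In Srsf3 the share was 59.2% and 60.7%, the highest of all members. Its most abundant transcript was Srsf3-205, a retained_intron type, with 417 TPM in pool 1 and 397 in pool 2, or 44.96% and 46.7% of the gene (isoform percent). The coding Srsf3-202 had 378 and 335 TPM, or 40.8% and 39.3%. By reads the order was the reverse, 9941 and 9097 expected counts for Srsf3-205 against 27413 and 23330 for Srsf3-202, since the first was 910 nt long in the tables and the second 2566 nt. In vM21, which gave the types, Srsf3-205 is 2110 nt, so its type may belong to a longer model than the one that was counted. Even the vM21 model spans no whole intron of Srsf3-202, so the type is given here as annotated. Srsf3-202 and the decay-type Srsf3-201 also have other lengths in vM21, and the exon shown above is that of the vM21 model of Srsf3-201. Srsf3-201 had 9.52% and 9.03% of the gene.

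Srsf5 and Srsf11 also had most of their share in the retained_intron type. The leading transcript of Srsf5 was Srsf5-212, which keeps the 1229 nt intron whose ends are shown above, with 123 and 78.3 TPM (36.7% and 39.3%). The coding Srsf5-201 had 99.9 and 54.1 TPM (29.9% and 27.2%). Srsf5 was the 1 gene of the 4 highest SR genes whose share was larger in reads, 55.2% and 58.5%, than in TPM, 42.4% and 45.8%. In Srsf11 the share was 45.9% and 49.3%, spread over 10 non-coding transcripts. The coding Srsf11-202 led with 49.0% and 47.7%, and the retained-intron types Srsf11-208 (15.3% and 17.3%) and Srsf11-203 (11.1% and 12.2%) followed. Neither of these models spans a whole intron of Srsf11-202, so the type is given here as annotated. The poison exon transcript Srsf11-206 held 4.91% and 5.51%.

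Srsf10 made its share of processed transcripts alone, 34.8% in pool 1 and 45.3% in pool 2. The pools were thus 10.6 points apart, and in reads the share was only 7.88% and 11.5%. Its largest non-coding transcript, the 717 nt Srsf10-207, had 13.1% and 13.9% beside 32.0% and 27.8% for the coding Srsf10-204. Srsf1 had a share of 23.9% and 27.2%, with the retained-intron Srsf1-203 at 13.0% and 13.1% and the decay-type Srsf1-204 at 9.01% and 11.5%. The coding Srsf1-201 had 48.2% and 45.5%, and the Srsf1-203 model spans no whole intron of it.

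Srsf6 took nearly its whole share from the poison exon transcript. Srsf6-201 had 53.3 and 36.4 TPM, or 25.9% and 20.9% of the gene, beside 149 and 134 TPM (72.5% and 76.7%) for the coding Srsf6-203. These transcripts came from 2454 and 1613 expected counts against 15034 and 12955. Srsf2 had 12.7% in the decay-type Srsf2-204 in each pool and a share of 18.6% and 19.2%. The share was small in Srsf4 (6.47% and 6.85%) and Srsf9 (4.94% and 5.28%), where Srsf9-201 held 93.4% and 93.5%. Srsf12, with coding types only, was led by Srsf12-201 at 57.6% and 64.4%.

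Among the hnRNP genes, Hnrnph1 had the highest share, 50.9% and 56.2%, all of it processed transcripts. Its 18 transcripts held 15 of that type. The 816 nt Hnrnph1-212 had 120 and 152 TPM (18.6% and 25.6%) and Hnrnph1-218 had 77.6 and 71.2 TPM (11.96% and 11.95%). The coding Hnrnph1-201 led with 254 and 197 TPM (39.2% and 33.1%). In reads the share of Hnrnph1 stayed high, at 41.9% and 46.2%. Much of that lay in the 4577 nt Hnrnph1-205, with 8559 and 7258 expected counts but only 10.02% and 9.64% of the gene's TPM. The level of this transcript was uncertain. Its 65.0 TPM in pool 1 lay outside its deposited interval of 17.2 to 62.5, and its 57.4 TPM in pool 2 had an interval of 20.3 to 57.6. The share of Hnrnph1 in reads depends on it.

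In Hnrnpl and Hnrnpk, the largest non-coding transcript is annotated as keeping a short intron. Reads across these introns were not examined. Hnrnpl-210, 672 nt long with the 118 nt intron shown above, had 56.4 and 69.1 TPM, or 24.6% and 32.2% of the gene. The coding Hnrnpl-201 had 63.4 and 47.2 TPM, or 27.7% and 22.0%, so the leading transcript differed between the pools. The share of Hnrnpl was 31.9% and 42.5% in TPM but 14.2% and 22.4% in reads. Hnrnpk-217, with its 78 nt intron, had 438 and 378 TPM from 9984 and 8287 expected counts. That was 22.5% and 23.8% of the gene, beside 42.1% and 41.4% for the coding Hnrnpk-201. The 438 TPM of this single non-coding transcript in pool 1 exceeded the gene TPM of 23 members in that pool. In reads the share of Hnrnpk was 13.8% and 15.1%, against 35.1% and 38.2% in TPM.

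In Hnrnpd and Hnrnpdl, decay-type transcripts weighed more. Hnrnpd-208 had 55.5 and 54.2 TPM, 25.5% and 30.1% of its gene, beside 40.9% and 40.4% for the coding Hnrnpd-203. Hnrnpd was the only member with at least 25% in the decay type alone in both pools (27.9% and 31.8%). Hnrnpdl was divided among all types: the processed Hnrnpdl-203 had 13.0% and 11.8%, the decay-type Hnrnpdl-201 had 9.41% and 11.1%, and the coding Hnrnpdl-202 had 42.4% and 38.7%. Shares of these genes were 28.4% and 32.8% for Hnrnpd and 31.0% and 32.3% for Hnrnpdl.

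Among the hnRNP genes, Hnrnpu had the widest gap in points between the measures. Its share was 24.2% and 33.5% in TPM but 2.71% and 4.37% in reads. The coding Hnrnpu-201 is 7640 nt long, and the non-coding Hnrnpu-202 and Hnrnpu-203 are 673 and 869 nt. Hnrnpu-202, of the retained_intron type, spans no whole intron of Hnrnpu-201. Hnrnpu-203 had 294 and 512 expected counts, 9.21% and 17.1% of the gene. Hnrnpu shares 804 exon bases with Cox20 on the opposite strand, which had 84.0 and 85.5 TPM. The strand setting of the counting, not given in the sources used here, decides whether such reads can be separated, and the part of Cox20 in this share was not tested.

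In Hnrnph3 the share was 24.9% and 26.5%, with Hnrnph3-204 (decay type, 9.49% and 10.9%) and Hnrnph3-206 (retained intron, 9.99% and 10.1%) beside the coding Hnrnph3-201 (48.8% and 47.0%). In Hnrnpr it was 10.1% and 16.8%, nearly all in Hnrnpr-206, a decay type with 310 and 450 expected counts. The leading coding transcript differed between the pools: Hnrnpr-202 led in pool 1 with 39.3% and Hnrnpr-204 in pool 2 with 37.8%. Shares were under 11% in Hnrnpll (10.2% and 8.23%), Hnrnpm (1.83% and 3.35%) and Hnrnpa3 (0.72% and 1.08%). Among the genes with coding types only, Hnrnpul1-201 held 99.1% and 98.3% of its gene and Hnrnph2-203 held 50.2% and 50.7%.

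**Figure D3:**
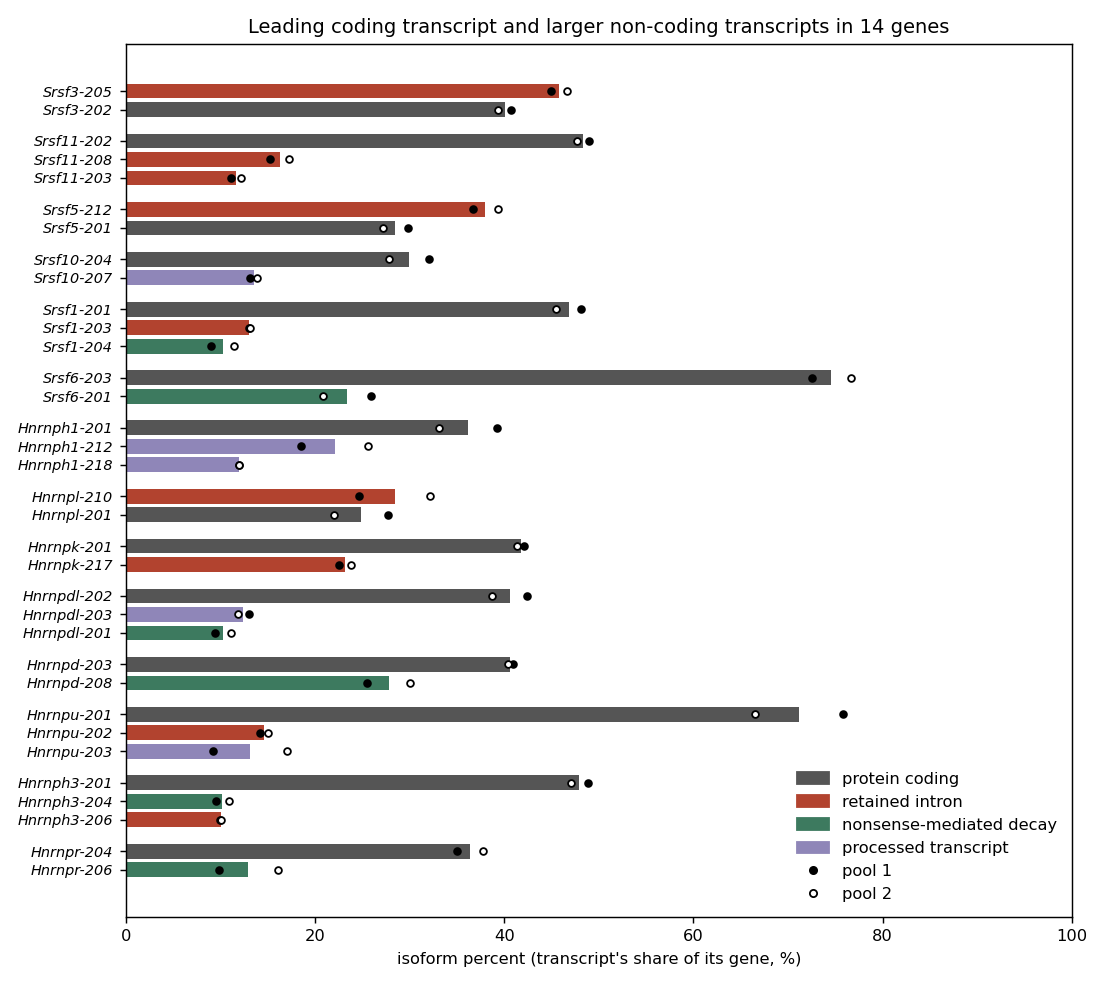
Isoform percent (x axis, share of the gene in %) of the most abundant coding transcript and of each non-coding transcript with a mean of at least 10% in 14 genes; bars are the mean of the pools, coloured by type, with filled points for pool 1 and open points for pool 2. A transcript annotated as retained_intron exceeded the leading coding transcript in Srsf3 and Srsf5 in both pools, and in Hnrnpl in pool 2.

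Isoform percents were compared between the pools. The leading transcript was the same in 28 of 31 members, the exceptions being Hnrnpl, Hnrnpr and Hnrnpa3. Only 1 of the 212 transcripts differed by 10 points or more, the coding Hnrnpa3-204, with 41.02% in pool 1 and 23.2% in pool 2. Its gene was led by Hnrnpa3-202 in pool 2, at 42.9% after 33.9% in pool 1. Of the 103 non-coding transcripts, 21 had a mean isoform percent of at least 10 (9 Srsf, 12 Hnrnp). The others had little room for a gap of 10 points. The 3 members with 1 transcript, and the 18 transcripts without expected counts in either pool, had none. The same counts over all genes were not made.

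The non-coding share was higher in pool 2 in 18 of 20 members, the exceptions being Srsf6 and Hnrnpll. It was higher in pool 2 in 62.4% of the 7521 compared genes too. The median difference was 2.31 points in the members and 1.03 points in all compared genes. Split by type, coding TPM was lower in pool 2, against the median gene, in all 20 members, beside 74.8% of the compared genes, with medians of -0.23 and -0.15 on the log2 scale. Non-coding TPM had a median of -0.068 in the members, with 9 higher and 11 lower in pool 2. In all compared genes that median was 0.048, and 54.6% were higher in pool 2. With 1 added to each TPM and the negative median subtracted, a gene without non-coding TPM in either pool counts as higher in pool 2. How many compared genes had so little non-coding TPM was not examined, so these background values are not on a like footing with the members. The nuclear RNA Malat1 also differed, with 2872 TPM in pool 1 and 4761 in pool 2 (relative log2 ratio 0.73), and long intergenic and antisense RNA genes held 2.39% and 3.48% of Ensembl TPM. Their part in the shift of shares was not tested.

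**Figure D4:**
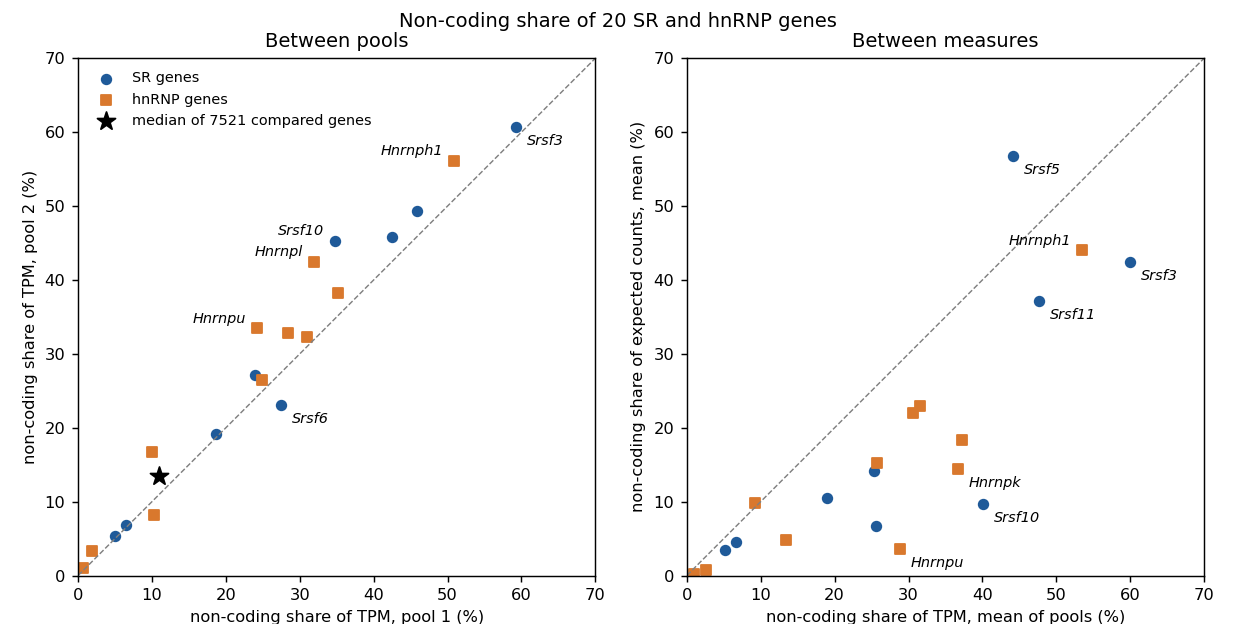
Non-coding share (%) of 20 members, circles for SR genes and squares for hnRNP genes: left, pool 2 against pool 1 with a star at the median of 7521 compared genes; right, the share of expected counts against the share of TPM, means of the pools. Dashed lines mark equality; 18 of 20 points lie above it on the left, and Srsf5 lies far above it on the right, where Hnrnpu and Srsf10 are far below.

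Companion genes of the same pathway were all or nearly all present. Of SR protein kinases, a phosphatase and nuclear import receptors (not all of them specific to SR proteins), 9 of 10 reached 1 TPM in each pool. The exception was Srpk3 (1.20 and 0.90 TPM). The highest were Ppp1ca (684 and 587 TPM), Clk1 (120 and 135) and Clk4 (111 and 96.7). Tnpo1, an import receptor, was 1.75-fold higher in pool 2 when set against the median gene (48.3 and 78.9 TPM), the only gene of that list over 1.5-fold apart. Of the 6 genes in that list with coding and other types, 5 had a non-coding share of at least 25% in both pools. These include Srpk3, whose shares of 46.7% and 82.2% rest on very low TPM. Clk1, a kinase of SR proteins, had 67.1% and 78.8%.

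All 15 other SR-like genes were detected, led by Tra2b (342 and 305 TPM), Srrm2 (271 and 314) and Rnps1 (259 and 228), with Sfswap lowest (17.2 and 16.9). Among 8 comparable, Acin1 and Rsrc2 had a share of at least 25% in both pools. All 17 hnRNP-like genes without the prefix were detected too, led by Matr3 (596 and 470 TPM), Nono (500 and 379) and Rbm3 (341 and 310). Of 12 comparable, 6 had at least 25%. The lowest, Taf15, had 5.44 and 18.3 TPM, 3.23-fold apart relative to the median gene.

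All 14 genes of nonsense-mediated decay were detected, led by the exon junction proteins Eif4a3 (291 and 263 TPM), Magoh (169 and 171) and Rbm8a (90.5 and 81.7), with Upf2 lowest (9.01 and 9.99). All 12 core spliceosome genes were detected, led by Snrpb (545 and 480 TPM), Snrpd2 (297 and 267) and Sf3b1 (269 and 254), with Prpf3 lowest (53.0 and 41.9). Of 8 core genes that could be compared, only Sf3b1 had a share of at least 25% in both pools (60.8% and 67.9%). Over the 5 lists, 16 of 44 comparable genes did (the barely detected Srpk3 included), beside 9 of 20 members and 27.3% of all.

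Other genes share exon bases with members, which matters where strand was not used in counting. Srsf2 overlaps Mettl23 (46.6 and 48.8 TPM) and Mfsd11 (27.7 and 23.4 TPM) on the opposite strand. Hnrnpm shares 1169 exon bases with March2 (34.2 and 27.7 TPM) on its own strand. Hnrnpab, Hnrnpk and Hnrnph3 share 809, 330 and 115 exon bases with Phykpl, Rmi1 and Rufy2, each under 25 TPM. Processed pseudogenes can share reads with a gene of like sequence. Such pseudogenes were looked for by name only, and no sequence was compared with that of Hnrnpa1. One named in the annotation, Hnrnpa1l2-ps2, had 0.25 and 0.24 TPM.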

How the data were processed

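Members and companion lists were chosen with earlier results of these data known. The authors deposited tables of genes and of transcripts per library, which hold, per the file headers, expected counts (estimated, not always whole), TPM, FPKM and, for transcripts, IsoPct, a percent of the gene. Per the labels, the assembly was mm10 and RNA was extracted with mirVana; the annotation was M4, per a deposited readme. No quantification tool or strand setting is given in the sources used here. TPM counts spike-ins in its total. Deposited interval bounds were not used in the comparisons: TPM lay outside its own interval in 40 and 33 of the 212 transcripts.

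Symbols, types, coordinates and sequences came from GENCODE vM21 (GRCm38), matched on the identifier without its version (42462 of 43346 genes, 211 of 212 member transcripts, 19 of them with another length in vM21). The non-coding share was the TPM of types other than protein_coding over that of all typed transcripts. Pool ratios were differences of log2(TPM + 1), pool 2 minus pool 1, less the median over genes whose mean TPM reached 1. No p-value was computed. Steps were tested on simulated data.

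Isoforms were named for the 6 Srsf and 8 Hnrnp genes with the highest share and the 2 lowest of each family among members with at least 2 typed transcripts and a mean TPM of at least 5 (ties by symbol): the leading coding transcript, others with a mean isoform percent of at least 10, and any 10 points apart. Srsf3-201, Srsf2-204, Srsf11-206 and the leading transcripts of Hnrnpr and Hnrnpa3, and the companion genes named for their share or pool ratio, were added after values were seen. Alternatives used rescaled TPM, expected counts scaled with TMM (edgeR 4.0.16) or DESeq2 1.42.0 size factors in R 4.3.3, FPKM, other filters and other type definitions. Python 3.11.15 was used with pandas 2.3.3, NumPy 2.4.6 and Matplotlib 3.10.9.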

Additional observations from a re-analysis of the deposited data

How the results depend on the processing

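Family sums moved with the TPM total: 4422 (Srsf) and 8888 (Hnrnp) without spike-ins, and 5099 and 10247 over protein-coding nuclear genes. In expected counts the non-coding share was 20.5% for Srsf and 8.57% for Hnrnp, 4 members had at least 25% in both pools, and the median compared gene had 5.26%. With decay types counted as coding the values were 24.4%, 16.2% and, for the median gene, 8.95%. With only retained introns they were 20.4%, 10.9%, 5 members and 2.83%. With only decay types they were 7.68%, 1.84%, 1 member and 0%. Among transcripts of at least 500 nt the median gene had 9.74%. Alternatives chosen after seeing the data gave the median gene 15.4% (posterior mean TPM), 8.28% (mean TPM of at least 50) and 16.1% (5 or more typed transcripts), and gave Srsf 27.6% and Hnrnp 23.4% where only transcripts of unchanged length in vM21 were kept. In that last setting, the families were 4.18 points apart. The median relative log2 pool ratio of the members was -0.064 (pseudocount 0.1), -0.077 (TMM), -0.090 (DESeq2 size factors), -0.18 (not centred, and with no filter) and -0.050 (mean TPM of at least 5). With 2 pools, leaving out 1 returns the value of the other, so it is no check of stability: the members with a share of at least 25% numbered 12 in pool 2 alone and 10 in pool 1 alone. Srsf5 stayed the 1 member over 1.5-fold apart under every scaling tried. No paired analysis was possible because there is 1 group and the results come from no test. A pool ratio cannot be computed without either pool. Depth limits mainly Hnrnpul2, Srsf12 and non-coding transcripts with few reads.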
